A study of Mus musculus with 6 samples.

Results

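A set of 10 well-known direct target genes of the transcription factor p53 was followed in whole mouse kidneys with and without a deletion of the transferrin receptor gene. The genes were Cdkn1a, Mdm2, Ccng1, Trp53inp1, Phlda3, Sesn1, Eda2r, Aen, Zmat3 and Btg2. They were chosen by symbol as p53 targets in growth arrest and feedback, and all 10 were found among the 24422 genes counted. A separate list of apoptosis targets was left out, although Aen is itself named for apoptosis. The 3 Control kidneys were labelled wild type. The 3 TfR1 knockout kidneys were labelled Tfr1f/f;SixCre. Both groups were C57BL/6 mice at postnatal day 13 on a diet with 220 ppm iron. Six2Cre is a recombinase active in the progenitors of the nephron tubules and glomeruli, and not in those of the collecting duct or the stroma. The study describes tubule cells that escaped the deletion, so a knockout kidney was a mixture of deleted and undeleted cells. The RNA came from the whole organ, in which more cells of a type and more RNA per cell cannot be told apart.

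p53 is held at a low level in unstressed cells because Mdm2 marks it for degradation. DNA damage, nucleotide shortage and other stresses release it, and it then binds response elements near its target genes and raises their transcription. Mdm2 is itself a target and closes a feedback loop, Cdkn1a stops the cell cycle, and other targets act in repair, metabolism, RNA processing and cell death. In the kidney, Cdkn1a is best known as a gene that rises in injured tubules. It also responds to factors other than p53, and the study treats it as a target of the hypoxia-inducible factor HIF.

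The letters of the p53 response element were searched in the mm9 genome to show where the genes carry them. The element has 20 bases, made of 2 abutting copies of a 10-base motif that reads the same on both strands, and its 4 core C and G positions had to be intact. Within 5000 bases of the annotated gene start, 4 of the 10 genes (40%) held an element with at most 2 mismatches, against 11% of the 14885 tested genes with a gene model. With at most 1 mismatch the share was 30% against 1.9%. A match describes letters in a window and does not show that p53 bound there. The 6 elements are shown because they lie beside or within genes whose counts are described next. Each is written 5′ to 3′ on the strand of its gene, with the element in capitals.
Cdkn1a, chr17:29227873-29227892, plus strand, upstream: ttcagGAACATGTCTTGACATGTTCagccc
Ccng1, chr11:40568964-40568983, minus strand, upstream: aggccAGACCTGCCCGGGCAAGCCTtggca
Ccng1, chr11:40568438-40568457, minus strand, intron: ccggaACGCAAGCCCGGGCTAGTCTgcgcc
Eda2r, chrX:94571873-94571892, minus strand, intron: tgcctGGGCAAGTCCGGGCCTGTGTaaaaa
Zmat3, chr3:32269073-32269092, minus strand, upstream: ttggaGAGCAAGTCTGGGCTTGTTAgttta
Zmat3, chr3:32263253-32263272, minus strand, intron: gtgagAAACAAGCCCAGGCATGTCTtggga
The intronic Zmat3 element had 0 mismatches, the Eda2r element had 2 and the other four had 1 each. The center of the Cdkn1a element lay at -42 from the most upstream annotated start of Cdkn1a and at -2835 from another. No match in this window was found for Mdm2, Trp53inp1, Phlda3, Sesn1, Aen or Btg2, which says only that these letters are not there.

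Of the 10 core targets, 7 rose in TfR1 knockout kidneys, 0 fell, and 3 did not pass the test (0 were lower by edgeR or at an unadjusted p under 0.05 by either tool). The 7 were Eda2r, Cdkn1a, Btg2, Ccng1, Zmat3, Aen and Mdm2. All 3 knockout kidneys stood above all 3 Control kidneys for 7 of the 10, these same genes, against 16.9% of all tested genes. In Trp53inp1, Sesn1 and Phlda3 the groups overlapped. The test was the DESeq2 Wald test on raw counts, with p-values adjusted over all 16509 tested genes. At an adjusted p under 0.05, 7.74% of all tested genes were higher, and with a change of at least 2-fold as well the share was 4.41%. With the 2-fold threshold 6 of the 10 targets passed, Mdm2 dropping out. edgeR's quasi-likelihood test called the same numbers, 7 and 6, against backgrounds of 3.22% and 2.48%. The median log2 fold change of the 10 genes was 1.69, against 0.0071 for all tested genes. Since the genes were chosen with earlier results of these data known, these counts describe the list and carry no test of it.

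**Figure D1:**
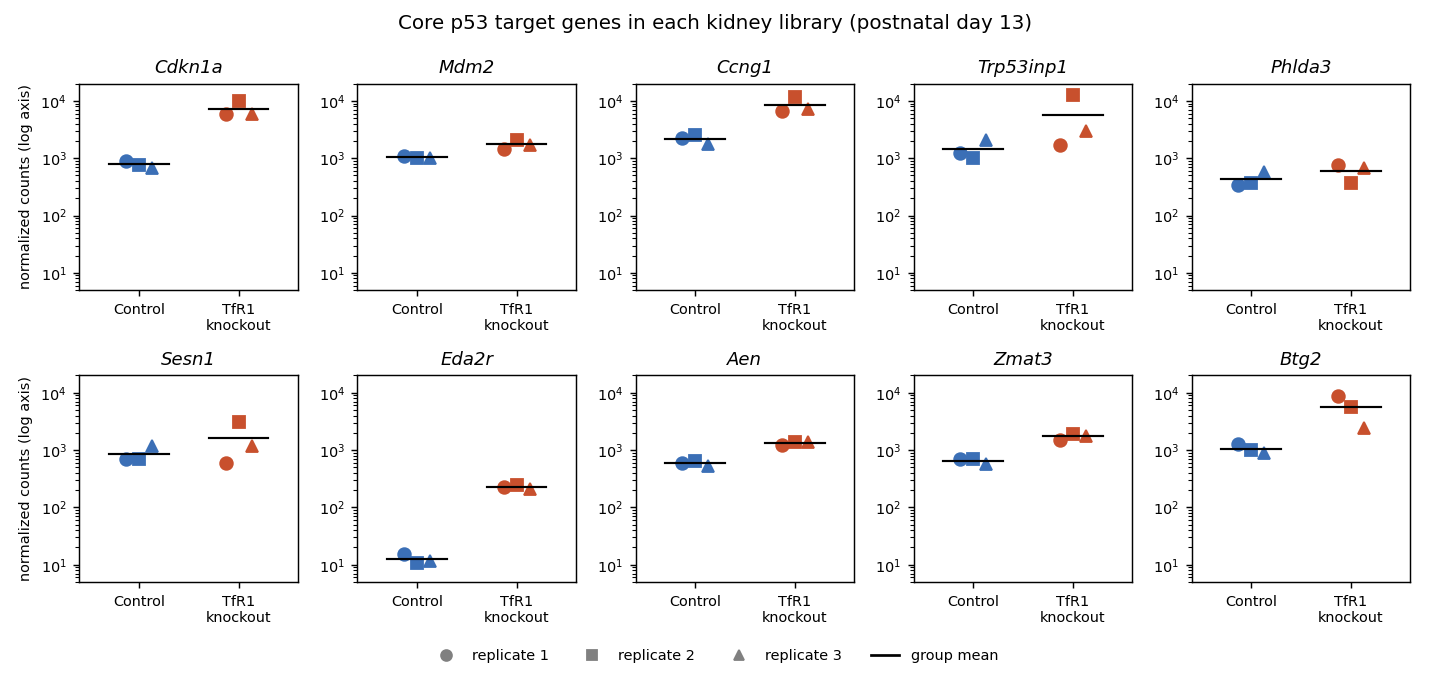
Normalized counts (log axis) of the 10 core p53 target genes in each library, with Control in blue, TfR1 knockout in red, the marker shape giving the replicate and the line the group mean (n = 3). Eda2r and Cdkn1a show the widest gaps between groups, and knockout replicate 2 stands far above the others for Trp53inp1 and Sesn1.

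Cdkn1a, Btg2 and Ccng1 are the members that act on the cell cycle. Cdkn1a (chr17:29227924-29237667), which encodes the cyclin-dependent kinase inhibitor p21, had 890, 771 and 675 normalized counts in Control replicates 1 to 3 and 5857, 10064 and 5925 in knockout replicates 1 to 3. The lowest knockout kidney was well above the highest Control kidney. The increase was 9.35-fold (log2 fold change 3.23, SE 0.27, DESeq2 adjusted p = 6.61e-30, edgeR adjusted p = 0.00204).

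Btg2 (chr1:135971747-135975697), an antiproliferative gene that acts on mRNA deadenylation, had 1265, 993 and 903 normalized counts in Control and 8785, 5645 and 2458 in knockout kidneys. The groups did not overlap, but the knockout values spread 3.57-fold, the widest of the 7 genes that rose. The log2 fold change was 2.42 (SE 0.41, DESeq2 adjusted p = 2.33e-07, edgeR adjusted p = 0.0246). Without knockout replicate 1, the highest, it was 1.94 and still passed. Ccng1 (chr11:40562054-40568813) encodes cyclin G1, an atypical cyclin that works with a phosphatase on Mdm2 and p53. It had 2281, 2525 and 1736 normalized counts in Control and 6749, 11846 and 7120 in knockout kidneys. Every knockout kidney was above every Control kidney, at 3.93-fold (log2 fold change 1.97, SE 0.28, DESeq2 adjusted p = 2.20e-10, edgeR adjusted p = 0.00999).

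The feedback gene changed least among the 7. Mdm2 (chr10:117125944-117147814), the ubiquitin ligase that degrades p53, had 1102, 990 and 1014 normalized counts in Control and 1449, 2103 and 1689 in knockout kidneys. The groups were separate, yet the increase was only 1.69-fold (log2 fold change 0.75, SE 0.20, DESeq2 adjusted p = 0.00225, edgeR adjusted p = 0.0389). Mdm2 lost the call without Control replicate 2 (log2 fold change 0.72, DESeq2 adjusted p = 0.0577). Over the 6 fits that each left out 1 library its adjusted p ran from 2.22e-04 to 0.0577.

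For Eda2r, Aen and Zmat3 the knockout replicates lay close together. Eda2r (chrX:94529179-94572555), a receptor of the tumor necrosis factor receptor family for the ligand ectodysplasin A2, had 15.7, 10.9 and 11.8 normalized counts in Control and 226, 249 and 213 in knockout kidneys. It was nearly silent in Control kidneys and was the largest change of the 10, at 17.8-fold (log2 fold change 4.15, SE 0.33, DESeq2 adjusted p = 6.05e-33, edgeR adjusted p = 0.00121). The knockout values differed by no more than 1.17-fold among themselves.

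Aen (chr7:86040740-86056095) encodes the apoptosis-enhancing nuclease, which enters the nucleus after p53 activation. It had 595, 640 and 526 normalized counts in Control and 1203, 1359 and 1359 in knockout kidneys. Its values were close within each group and apart between them, at 2.22-fold (log2 fold change 1.15, SE 0.16, DESeq2 adjusted p = 2.52e-10, edgeR adjusted p = 0.00581). Zmat3 (chr3:32233718-32264600) encodes a zinc finger protein that binds RNA and affects splicing and mRNA stability. It had 692, 694 and 564 normalized counts in Control and 1483, 1937 and 1778 in knockout kidneys. All 3 knockout values were above the Control range, at 2.66-fold (log2 fold change 1.41, SE 0.19, DESeq2 adjusted p = 1.49e-11, edgeR adjusted p = 0.00505).

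The 3 genes that did not pass, Trp53inp1, Sesn1 and Phlda3, overlapped between groups. Trp53inp1 (chr4:11083578-11101526), a stress protein that assists p53 and acts in autophagy, had 1224, 999 and 2095 normalized counts in Control and 1728, 12487 and 2954 in knockout kidneys. Knockout replicate 2 stood far above the other two, and knockout replicate 1 was below Control replicate 3. The log2 fold change of 1.99 had a 95% interval of 0.29 to 3.69 (DESeq2 adjusted p = 0.106, edgeR adjusted p = 0.136). Without knockout replicate 2 it was 0.71 (DESeq2 adjusted p = 0.258).

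Trp53inp1 passed the threshold without knockout replicate 1 (2.42, DESeq2 adjusted p = 1.99e-04), without knockout replicate 3 (2.31, DESeq2 adjusted p = 0.0103), with total-count scaling (DESeq2 adjusted p = 0.0264) and with the level of Xist, an RNA of female cells, as a covariate (DESeq2 adjusted p = 8.09e-04). Its adjusted p ran from 1.99e-04 to 0.357 over the fits that left out 1 library.

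Sesn1 (chr10:41530380-41628230), a sestrin that restrains mTORC1 signaling and oxidative stress, had 706, 701 and 1201 normalized counts in Control and 601, 3046 and 1170 in knockout kidneys. Knockout replicate 2 was above the Control range, and the other knockout values were below its upper end. The log2 fold change was 0.89 with a 95% interval of -0.13 to 1.90 (DESeq2 adjusted p = 0.259). Without knockout replicate 2 it was 0.032, and without knockout replicate 1 it was 1.28 and passed (DESeq2 adjusted p = 0.0231, in a range of 0.0231 to 0.978 over the fits that left out 1 library).

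Phlda3 (chr1:137662696-137665713), which encodes a protein that blocks Akt at the membrane, had 346, 374 and 584 normalized counts in Control and 766, 370 and 676 in knockout kidneys. Here knockout replicate 2 was the low library and lay within the Control range. The log2 fold change was 0.48 with a 95% interval of -0.19 to 1.14 (DESeq2 adjusted p = 0.380). The interval includes no change and also the log2 fold change of Mdm2.

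**Figure D2:**
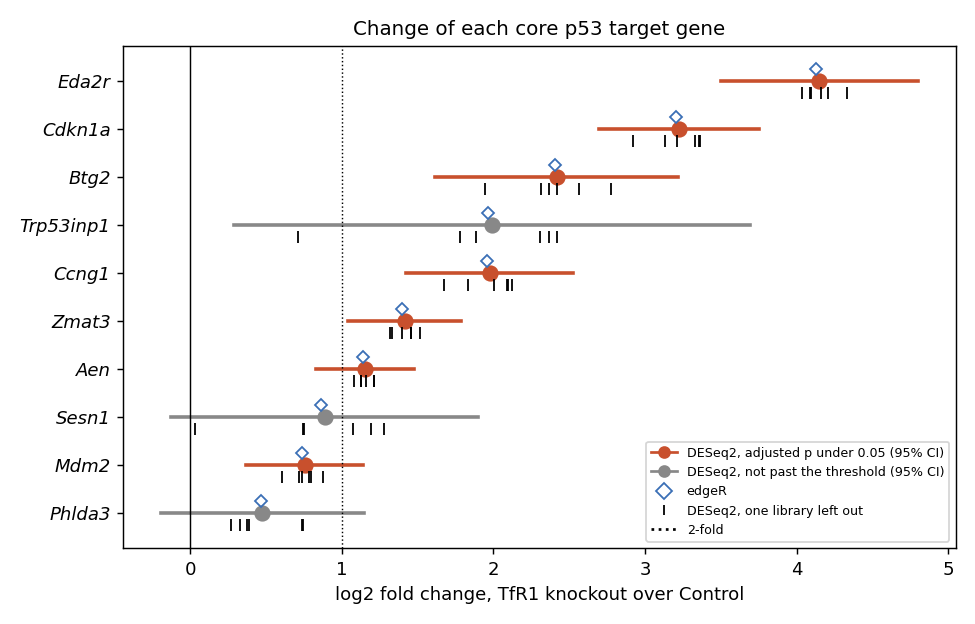
Log2 fold change of each core p53 target gene (TfR1 knockout over Control, n = 3 each) by DESeq2 with its 95% interval, by edgeR (diamonds) and with each library left out in turn (ticks), and the dotted line marks 2-fold. The intervals of Trp53inp1, Sesn1 and Phlda3 are wide, and for the first pair of these the tick without knockout replicate 2 lies far to the left.

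The knockout libraries ranked differently from gene to gene. Knockout replicate 2 had the highest value of the 3 for 7 members, replicate 1 for Phlda3 and Btg2, and replicate 3 for Aen. Over all tested genes, knockout replicate 2 was the highest of the 3 for 40.1%. The median fold of the 10 genes over the Control mean was 2.17 in knockout replicate 1, 4.43 in replicate 2 and 2.32 in replicate 3. Without knockout replicate 2 the median log2 fold change of the 10 was 1.23, and 7 genes still passed. Control replicate 3 stood apart from the other Control libraries in its tubule and stroma markers, and without it 7 genes passed with a median of 1.58.

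Levels can be compared between genes only per length, so counts were also expressed as RPKM, the count divided by the exon length and by the library's total gene count. On the RPKM scale Ccng1 was the highest of the 10 in Control kidneys, at 33.1 ± 4.92 (mean ± SD, n = 3). Btg2 (20.5 ± 3.37), Cdkn1a (18.7 ± 2.20), Phlda3 (15.1 ± 5.14), Sesn1 (14.1 ± 5.28), Trp53inp1 (12.0 ± 5.36) and Mdm2 (10.9 ± 0.730) followed, with overlapping values from each to the next. The SD is between libraries, and within libraries some of these orders were steady. In every Control library Btg2 was above Cdkn1a, Phlda3 above Sesn1, and Sesn1 above Trp53inp1. Aen at 5.52 ± 0.325 and Zmat3 at 4.29 ± 0.340 were lower and apart, and Eda2r was lowest at 0.116 ± 0.0227.

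In knockout kidneys Cdkn1a had the highest mean, at an RPKM of 160 ± 36.7. Ccng1 (119 ± 27.5) and Btg2 (102 ± 60.1) came next. Cdkn1a was above Ccng1 in every knockout library (137 against 99.8, 202 against 151 and 141 against 107). Btg2 was above both in knockout replicate 1 (166) and below both in replicates 2 (92.0) and 3 (47.4). Trp53inp1 had a level of 41.4 ± 39.1, Sesn1 of 23.0 ± 16.2, Phlda3 of 19.7 ± 7.97 and Mdm2 of 17.0 ± 1.93, which overlapped. Within libraries, Trp53inp1 was above Sesn1 in every knockout kidney. Aen reached 11.4 ± 1.05 and Zmat3 10.6 ± 1.06, and their order was not the same in every library. Eda2r, the gene with the largest fold change, remained lowest at 1.93 ± 0.0517.

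**Figure D3:**
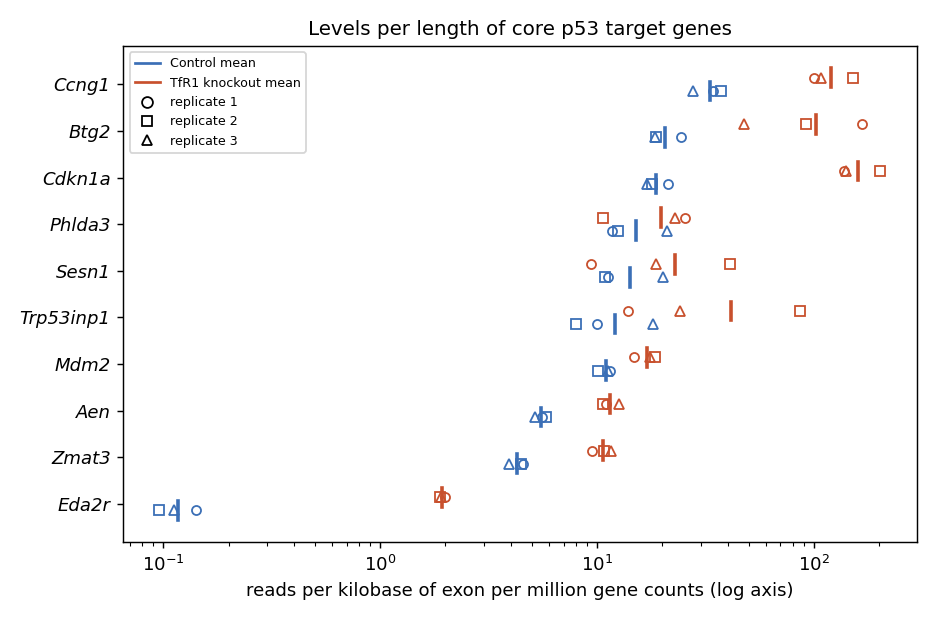
Level of each gene as RPKM, counts per length of exon and total gene count (log axis), with Control in blue, TfR1 knockout in red, open symbols for the 3 libraries and a bar for the group mean. Cdkn1a, Ccng1 and Btg2 are the highest levels in knockout kidneys, and Eda2r is lowest in both groups despite its large change.

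The message for p53 itself did not pass the test. Trp53 had 935, 917 and 1081 normalized counts in Control and 1166, 869 and 1246 in knockout kidneys, which overlapped (log2 fold change 0.16, SE 0.21, DESeq2 adjusted p = 0.656). p53 is regulated mainly at the protein level, which was not measured in these files. Among 14 tested genes of p53 and its regulators, 1 fell and 0 rose by DESeq2, while edgeR called 0 (2 were lower at an unadjusted p under 0.05 by either tool, and 0 higher). The shares called in either direction over all tested genes were 14.9% for DESeq2 and 6.02% for edgeR. The gene that fell was Chek1, a kinase of the replication checkpoint that is itself made in cycling cells (log2 fold change -1.07, SE 0.33, DESeq2 adjusted p = 0.0120, edgeR adjusted p = 0.0854). The p53 inhibitor Mdm4 (log2 fold change -0.11) and the phosphatase Ppm1d (0.0097) did not pass.

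Other p53 targets act in repair, arrest and signaling. Of 26 tested, 15 rose and 2 fell by DESeq2, with a median log2 fold change of 0.77, and edgeR called 9 higher and 0 lower (2 lower at an unadjusted p under 0.05). The shares over all tested genes were 7.74% higher and 7.18% lower by DESeq2, and 3.22% and 2.80% by edgeR. The secreted stress cytokine Gdf15 gave the largest increase, from 164, 117 and 77.5 normalized counts in Control to 2323, 684 and 623 in knockout kidneys. It did not overlap, and knockout replicate 1 was the high library (log2 fold change 3.34, SE 0.52, DESeq2 adjusted p = 8.43e-09, edgeR adjusted p = 0.0235). Lif, a cytokine of the interleukin 6 family, rose with a wide spread (log2 fold change 2.97, SE 0.71, DESeq2 adjusted p = 6.33e-04, edgeR adjusted p = 0.0682).

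The polo-like kinase Plk3 (log2 fold change 1.88), Zfp365 (1.84) and the phosphatase gene Ptprv (1.74) rose by both tools. So did the growth factor Tgfa (1.23), the growth arrest gene Gadd45a (1.18), Sesn2 (1.12), a second sestrin, the repair nuclease Ercc5 (0.96) and the epoxide hydrolase Ephx1 (0.74). Tap1 (1.19), Plk2 (1.11), Psrc1 (1.05), Sulf2 (0.68) and Gtse1 (0.64) rose by DESeq2 only. The replication clamp Pcna (log2 fold change -0.65, SE 0.22, DESeq2 adjusted p = 0.0236) and the spindle protein Ckap2 (-0.92, SE 0.24, DESeq2 adjusted p = 0.00247) were the genes that fell. Both are also made in proliferating cells. The remaining 9 did not pass, among them the nucleotide excision repair genes Ddb2 (-0.12) and Xpc (0.18).

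A separate list of apoptosis targets of p53 was kept apart from the core list, although the core gene Aen is also named for apoptosis. Of 8 tested, 5 rose and 0 fell by DESeq2, and 2 rose and 0 fell by edgeR (0 were lower at an unadjusted p under 0.05 by either tool), beside 7.74% and 3.22% of all tested genes called higher. Pmaip1, which encodes the BH3-only protein Noxa, had 90.7, 90.0 and 99.0 normalized counts in Control and 705, 898 and 578 in knockout kidneys. The Control values were nearly equal and the groups lay far apart (log2 fold change 2.96, SE 0.24, DESeq2 adjusted p = 5.48e-31, edgeR adjusted p = 0.00150). The death receptor gene Tnfrsf10b (log2 fold change 1.22) rose by both tools. Bbc3, which encodes Puma (1.12), the membrane protein gene Perp (1.08) and the pore-forming Bax (0.51) rose by DESeq2 only. Fas (1.00, DESeq2 adjusted p = 0.108), Apaf1 (0.33) and Pidd1 (0.13) did not pass.

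The paralogues listed here share ancestry with the core targets but are not on the p53 list, apart from the p53 inhibitor Mdm4. Sesn2, a paralogue of Sesn1 that rose by both tools (log2 fold change 1.12), was counted among the other p53 targets and is not included. Of 12 tested paralogues, 1 rose and 2 fell by DESeq2, and edgeR called 0 higher and 1 lower (1 higher and 3 lower at an unadjusted p under 0.05). Over all tested genes DESeq2 called 7.74% higher and 7.18% lower, and edgeR 3.22% and 2.80%, so the share of paralogues that rose was near the background. The clearest contrast was within the kinase inhibitor family of Cdkn1a. Cdkn1c, which encodes p57 and is expressed strongly in podocytes, had 7113, 6567 and 11233 normalized counts in Control and 1540, 901 and 1360 in knockout kidneys. It was lower in every knockout kidney (log2 fold change -2.71, SE 0.30, DESeq2 adjusted p = 1.63e-17, edgeR adjusted p = 0.00505). Cdkn1b, which encodes p27, had a log2 fold change of 0.33 and did not pass (DESeq2 adjusted p = 0.501).

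Btg1, the paralogue of Btg2, rose (log2 fold change 0.84, SE 0.29, DESeq2 adjusted p = 0.0313, edgeR adjusted p = 0.109), and Zmat1, related to Zmat3, fell (-1.42, SE 0.47, DESeq2 adjusted p = 0.0230, edgeR adjusted p = 0.117). Sesn3 (0.42), Ccng2 (0.20) and Trp53inp2 (0.45) were not called.

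Cell-cycle genes that p53 is known to repress through p21 were lower. Of 18 tested, 11 fell and 0 rose by DESeq2, and 7 fell and 0 rose by edgeR, beside backgrounds of 7.18% and 2.80% of all tested genes called lower. By either tool 0 were higher at an unadjusted p under 0.05. The knockout values were below all Control values for 16 of the 18, against 16.9% of all tested genes, and the median log2 fold change was -0.90. The proliferation marker Mki67 had 2986, 3079 and 4101 normalized counts in Control and 1682, 795 and 1136 in knockout kidneys. No knockout kidney reached the Control range (log2 fold change -1.49, SE 0.30, DESeq2 adjusted p = 2.95e-05, edgeR adjusted p = 0.0290). The helicase subunit Mcm5 (-1.30), cyclin A2 (Ccna2, -1.17) and the topoisomerase Top2a (-1.14) also fell by DESeq2. Kif23, a kinesin of cell division, had a log2 fold change of 0.46 and did not pass (DESeq2 adjusted p = 0.548). These messages also track the number of dividing cells, and the part of p21 in their levels was not tested.

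**Figure D4:**
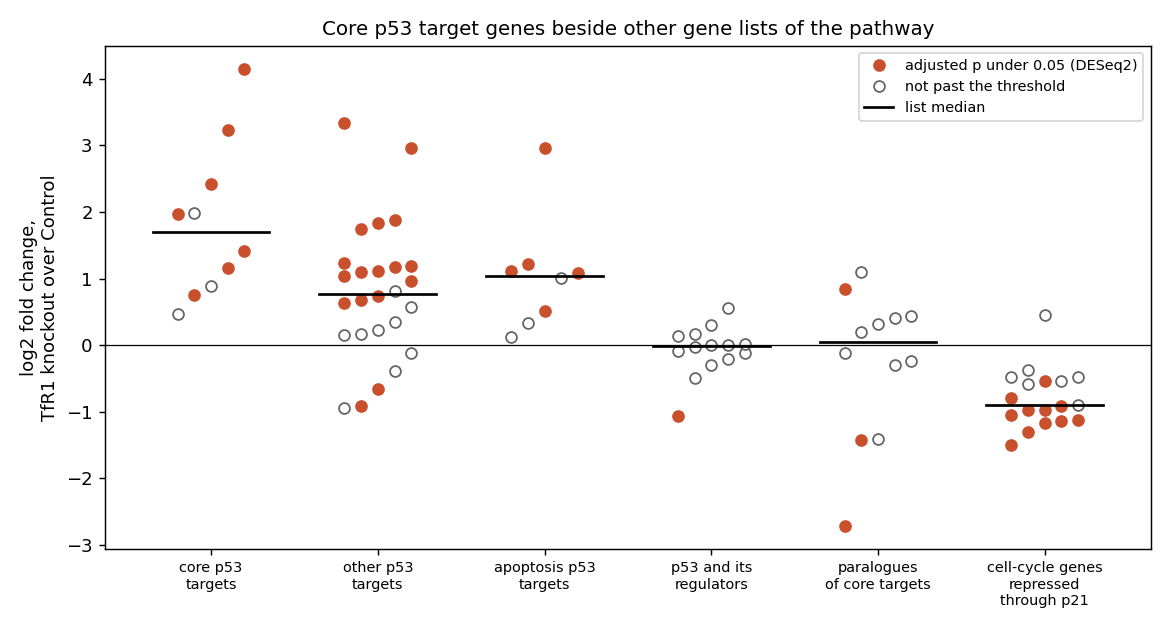
Log2 fold change (TfR1 knockout over Control, n = 3 each) of every tested gene in the core p53 target list and 5 other lists, with filled points for a DESeq2 adjusted p under 0.05 and a line at each list's median. The medians run from 1.69 for the core targets through 0.77 for other targets to -0.90 for the cell-cycle genes.

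Markers of several kidney cell types differed between the groups beside these genes. By DESeq2, 6 of 10 macrophage markers were higher (5 by edgeR). Summed over the 10, levels were 2849 to 4874 normalized counts in Control and 7724 to 10164 in knockout kidneys. All 3 distal convoluted tubule markers were lower by both tools (11272 to 22529 against 736 to 1783). Of 4 thick ascending limb markers, 3 were lower by DESeq2 and 2 by edgeR (42940 to 87957 against 11666 to 23490). Of 5 collecting duct markers, Aqp2 was higher by both tools and Aqp3 by DESeq2 only (7172 to 16161 against 30829 to 59526 summed over the 5). Most of the knockout sum was Aqp2, with 17805, 50719 and 23564 normalized counts, and Avpr2, Scnn1g and Hsd11b2 overlapped between groups and did not pass. Of 7 proximal tubule markers, 3 were lower and 1 higher by DESeq2 (1 and 1 by edgeR), with sums that overlapped (51445 to 118346 against 58932 to 91036). Over all tested genes, 7.74% were higher and 7.18% lower by DESeq2, and 3.22% and 2.80% by edgeR.

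By DESeq2, stroma had 1 of 6 markers lower (50513 to 107644 against 30451 to 51523, the highest in Control replicate 3). T and B cells had 1 of 5 lower, at low counts (52.7 to 105 against 5.12 to 50.7 summed). edgeR called 0 in either list and tested only 2 of the T and B cell markers. The shares of all tested genes called lower were 7.18% by DESeq2 and 2.80% by edgeR. The 4 podocyte and 5 endothelial markers gave 0 calls by either DESeq2 or edgeR, and 0 at an unadjusted p under 0.05. The defining red cell markers Hbb-b1, Hbb-b2 and Hba-a1 were at 0 in every library. The part of these shifts in the p53 target levels was not tested. Proximal tubule, thick ascending limb and podocyte markers were present in all 6 libraries, which were labelled kidney. Tfrc, the targeted gene, had 5229 ± 1434 normalized counts in Control and 5640 ± 1482 in knockout kidneys (mean ± SD, n = 3 each). It did not differ by the test (log2 fold change 0.11, SE 0.29, DESeq2 adjusted p = 0.853), and since the study floxed only part of the gene, its total count does not check the labels.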

How the data were processed

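Total RNA from whole kidneys was enriched for poly-A, made into TruSeq libraries and sequenced on a HiSeq2000. Per the submitters' processing notes, reads were handled with CASAVA 1.8.2, Trimmomatic, TopHat2 2.0.11, mm9 and HTSeq. The authors deposited raw counts per gene with no normalization. The annotation and whether strand was used are not given in the sources used here. Totals ran from 16591156 to 22898008 counts per library.

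Groups and replicate numbers came from the labels. The 3 libraries per group are described as biological replicates. All 6 libraries were fitted with DESeq2 1.42.0 in R 4.3.3 (Wald test, median-ratio size factors, Benjamini-Hochberg adjustment over the whole table, independent filtering at 0.05). edgeR 4.0.16 (quasi-likelihood test) and limma 3.58.1 (voom) were alternatives, as were other scalings, filters, a null of at most 2-fold, an Xist covariate, fits without 1 library each, and a block for the replicate number. The code was tested on simulated data, in which DESeq2 made more false calls than edgeR. The members and lists were chosen with earlier results of these data known. Every core target is named. Genes of other lists are named when past an adjusted p of 0.05 or with a stated part in the pathway. Kif23, Ddb2, Xpc, Ccng2 and Trp53inp2 were named after their values were seen. Positions and exon lengths came from the GENCODE annotation of mm9, matched by symbol for 20654 of 24422 genes. No other annotated gene overlapped a core target.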

Additional observations from a re-analysis of the deposited data

How the results depend on the processing

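The 10 core targets kept their direction under all 16 alternatives (0 sign changes). Over core targets and alternatives, 151 comparisons kept their side of the threshold, 4 lost it (Mdm2 in 2 fits, Aen and Zmat3 under the null of at most 2-fold) and 5 gained it (Trp53inp1 in 4 fits and Sesn1 in 1). A test against changes of up to 2-fold, which by design asks for more, passed 4 core targets, 1 other p53 target, 0 regulators, 1 paralogue and 0 cell-cycle genes. With edgeR the counts were 9 other targets higher, 0 regulators, 1 paralogue and 7 cell-cycle genes, and with limma-voom 8, 0, 1 and 7. The cause of these differences was not tested.

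Leaving out each library gave 6 to 9 core targets at an adjusted p under 0.05, 6 to 8 at 2-fold, and a median log2 fold change of 1.23 (without knockout replicate 2) to 1.75. It gave 10 to 15 other targets higher, with 10 without Control replicate 1, 0 to 2 regulators, 1 to 5 paralogues and 7 to 11 cell-cycle genes lower. The regulator count was 0 without any one Control library or knockout replicate 3 and 2 without knockout replicate 1. The paralogue count was 1 without Control replicate 1 or 2, 2 without Control replicate 3 or knockout replicate 3, and 5 without knockout replicate 1. The cell-cycle count was 7 without Control replicate 1 or 2.

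Deviations of same-numbered libraries from their group means correlated at -0.038, 0.055 and 0.090, and shared numbers were therefore not read as pairs. With the replicate block, 7 core targets passed, 6 at 2-fold, with a median of 1.43. The block also gave 14 other targets, 1 regulator, 4 paralogues and 11 cell-cycle genes. It changed no call of a core target. Few reads were counted for Eda2r in Control kidneys, and each group had 3 libraries.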

Other observations

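Among genes outside the list that averaged 100 or more normalized counts, the 5 whose pattern over the 6 libraries was closest to the mean of the core targets were Fgg (Pearson r 0.999), Fam129a (0.999), Rhbdd1 (0.998), Susd1 (0.997) and Pnp (0.996). The values were log2 of the normalized count plus 1, and the 6 points share the split between the groups, so r is a description without a test. Fgg, the gamma chain of fibrinogen, had 33.0, 29.1 and 34.4 normalized counts in Control and 368, 1100 and 444 in knockout kidneys, with knockout replicate 2 the highest. The average of 100 was taken over all 6 libraries, and Fgg reached it only through its knockout counts. Pnp, a purine nucleoside phosphorylase, had 1775, 1818 and 1898 in Control and 3074, 3562 and 3019 in knockout kidneys. Within the list, Cdkn1a followed the mean of the other members most closely (Pearson r 0.988) and Phlda3 least (0.235).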
